A study of Mus musculus with 2 samples.

Results

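*Zdbf2* and *Gpr1* are neighbouring genes on mouse chromosome 1. They were chosen by name, as 2 of the 1718 annotated genes that lie wholly inside the stretches of sequence held in the deposited tracks, and both passed the minimum of 10 read pairs in at least 1 library, as did 739 of the 1718 genes. The tracks give strand-specific, ribosomal RNA-depleted RNA signal in mouse embryo fibroblasts (MEFs). JXO MEFs came from a JF1 mother and a TgOG2 (OG2) father, and OXJ MEFs from the reciprocal mating, an OG2 mother and a JF1 father. Each cross is represented by 1 library from the early-passage carcass cells of 1 female 13.5 dpc embryo, and both embryos carry the germ cell GFP reporter of the OG2 line. Without replicates there is no test between crosses. Intervals given here are 95% intervals of counting error over read pairs. They take each read pair as a separate molecule, although PCR copies of a fragment cannot be told apart from it, so they can be too narrow. A difference between JXO and OXJ cannot be told apart from a difference between embryos, cultures or libraries. The tracks do not mark which parental allele a read came from, and in such bulk samples fewer cells of a type and less RNA per cell cannot be told apart.

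*Zdbf2* encodes a large protein with a DBF-type zinc finger. It is imprinted in the mouse and transcribed from the paternal copy. In the early embryo a longer form, called *Liz*, starts inside *Gpr1*, at a promoter that is methylated in the egg, and runs across the sequence between the genes, after which the promoter at the *Zdbf2* start itself takes over in somatic cells. *Gpr1*, on the opposite strand, encodes a cell surface receptor of the chemokine-like protein chemerin.

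In mm9 coordinates *Zdbf2* (ENSMUSG00000027520.8) occupies chr1:63319839-63361150 on the (+) strand, with 7 exons and 12659 exon bases. *Gpr1* (ENSMUSG00000046856.7) occupies chr1:63229265-63261117 on the (−) strand, with 3 exons and 1940 exon bases. Their starts face each other across 58.7 kb. RefSeq gives 2 starts for *Zdbf2*, and the 300-base window around each of them in the promoter table of GRCm38.p6 matched mm9 chromosome 1 exactly and at 1 place. The sequence before each start is shown because the somatic form and the longer one are known to begin at these 2 places. Each sequence ends just before an annotated start, that of *Zdbf2* at chr1:63319839 and that of the transcript *Gm11607* at chr1:63246887. The RefSeq starts lie further on, at chr1:63319843 and chr1:63246932. Capitals mark GGGCGG, the GC box, before the somatic start, and TGCCGC or its reverse complement GCGGCA, the motif that the imprint-keeping factor ZFP57 binds when methylated, before the start inside *Gpr1*.
Before the somatic start, chr1:63319593-63319838, (+) strand: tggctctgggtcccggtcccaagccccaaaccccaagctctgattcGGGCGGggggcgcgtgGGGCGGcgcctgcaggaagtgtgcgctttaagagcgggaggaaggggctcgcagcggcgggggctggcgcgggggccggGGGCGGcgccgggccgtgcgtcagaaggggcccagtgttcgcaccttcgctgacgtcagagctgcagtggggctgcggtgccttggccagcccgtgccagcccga
Before the start inside *Gpr1*, chr1:63246682-63246886, (+) strand: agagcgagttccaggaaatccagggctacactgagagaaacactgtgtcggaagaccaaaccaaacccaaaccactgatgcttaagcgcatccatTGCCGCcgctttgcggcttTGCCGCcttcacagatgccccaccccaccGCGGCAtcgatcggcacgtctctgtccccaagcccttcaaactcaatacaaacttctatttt
The somatic window held GGGCGG 3 times, counting both strands, and TGCCGC not at all. The window inside *Gpr1* held TGCCGC 3 times and GGGCGG not at all. Of 32851 RefSeq promoter windows of 300 bases, 35.7% held GGGCGG and 11.6% held TGCCGC on either strand. The somatic window had 74.7% GC and 38 CpG, and the window inside *Gpr1* had 51.3% GC and 15 CpG, beside medians of 52.7% and 7 over all windows.

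Signal is given as mean scaled depth, the mean number of reads over a base per 50000000 aligned reads, on the strand of the gene unless another is named. One read was worth 0.652 in JXO and 0.579 in OXJ. The tracks held 618 stretches that sum to 63.7 Mb, with 5.84e+06 reads of JXO and 5.79e+06 reads of OXJ in them, so a gene outside them is not measured. The stretch around *Zdbf2* ran from chr1:63061657 to chr1:63673856. Of the fibroblast markers, 2 of 7 lay inside the stretches. *Col1a2*, a collagen chain, had a level of 583 in JXO and 388 in OXJ, and *Dcn*, the proteoglycan decorin, had 22.9 and 25.9. Of the 5 listed neural markers, 4 were annotated by the listed name. None of these 4 or of the 4 listed blood markers lay inside the stretches. *Nes*, an intermediate filament of neural and other progenitors that was not listed and is named after its values were seen, had a level of 340 in JXO and 155 in OXJ, 0.66 (log2) above the median gene, and its part in the results was not tested. *Pou5f1* and *Dppa3* had no read in either library, and the germ cell gene *Ddx4* had a level of 0.980 in JXO and 4.14 in OXJ. The exon level of a gene was higher in JXO than in OXJ by a median of 0.48 (log2) over the 739 measured genes, and ratios are therefore also given relative to that median gene.

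*Zdbf2* was transcribed in both libraries, from the somatic start to the annotated end. Its exon level was 14.8 in JXO (14.02 to 15.6, 1435 read pairs), and the OXJ library gave 8.09 (7.56 to 8.64, 884 read pairs). This placed it near the middle of the 623 measured protein-coding genes, at rank 346 in JXO and rank 374 in OXJ. Reads covered 96.1% of the exon bases in JXO and 94.2% in OXJ. The JXO level was 1.83-fold the OXJ level, a log2 ratio of 0.87 (0.75 to 0.99), or 0.39 (0.27 to 0.51) above the median gene.

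*Gpr1* was detected at a low level. It reached an exon level of 2.15 in JXO (1.47 to 3.04, 32 read pairs), beside 0.716 in OXJ (0.370 to 1.25, 12 read pairs), at rank 522 and rank 579 of the 623 coding genes. Reads covered 81.0% of its exon bases in JXO and 47.2% in OXJ. The log2 ratio of JXO over OXJ was 1.59 (0.59 to 2.68), which is 1.11 (0.11 to 2.20) above the median gene. Of the 2 genes, *Gpr1* thus lay at least 2-fold above the median gene and *Zdbf2* did not. Of all 739 measured genes, 7.85% lay at least 2-fold away from the median gene in either direction and 2.71% at least 2-fold above it. The ratio of *Gpr1* rests on 12 read pairs in OXJ, and its interval reaches down nearly to the median gene.

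**Figure D1:**
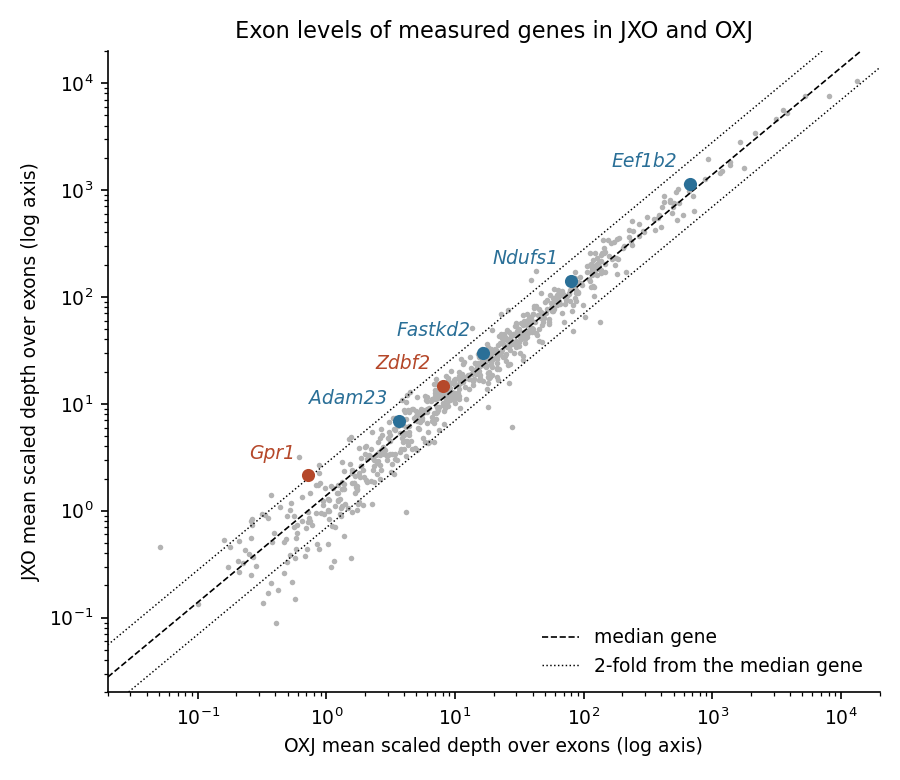
Mean scaled depth over exons in JXO (y axis) against OXJ (x axis), both on log axes, for the 739 measured genes (grey), with *Zdbf2* and *Gpr1* in red and 4 neighbours in blue; the dashed line is the median gene and the dotted lines lie 2-fold to either side of it. *Zdbf2*, at 14.8 and 8.09, lies 0.39 (log2) above the dashed line, and *Gpr1*, at 2.15 and 0.716, lies just beyond the upper dotted line.

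The measured genes on either side also lay above the median gene. Of 13 listed genes of the region, *Zdbf2* and *Gpr1* included, 6 were measured, and all 6 lay above the median gene, by 0.29 to 1.11 with a median of 0.38, and *Gpr1* was the 1 that passed 2-fold. *Eef1b2*, the translation elongation factor subunit next to the end of *Gpr1*, had a level of 1144 in JXO and 670 in OXJ, 0.29 above the median gene. *Ndufs1*, a subunit of respiratory complex I, had 140 and 80.2, 0.33 above it. On the far side, *Adam23*, a membrane protein of the ADAM family, begins 131 kb beyond *Zdbf2* and had 6.91 in JXO and 3.69 in OXJ, 0.42 above it. *Fastkd2*, a mitochondrial RNA-binding protein gene in another stretch, had 29.8 and 16.6, 0.37 above it. All of these ratios come from the same 2 libraries. Among 31 listed paternally expressed imprinted genes, *Zdbf2* and *Gpr1* again included, 21 were measured, with a median 0.19 above the median gene. Of these 21, 14 lay above the median gene, *Gpr1* alone was at least 2-fold above it and 0 were at least 2-fold below it. Their levels spanned a wide range. *Igf2*, a growth factor and the highest of them, had 765 in JXO and 464 in OXJ, 0.24 above the median gene. *Slc38a4*, an amino acid transporter, had 339 and 141, 0.79 above it, and *Peg10*, a gene derived from a retrotransposon, had 58.4 and 69.7 and lay at -0.73, the lowest of the 21.

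The 3 coding genes most like *Zdbf2*, by the distance over the log2 exon levels in both libraries and the mean log2 ratio of intron over exon level, were *Shf*, *Zc3hc1* and *Rprd1b*, out of 554 genes compared. *Shf*, an SH2-domain adaptor, had a level of 12.1 in JXO and 7.79 in OXJ, at a distance of 0.30. *Zc3hc1* had 14.8 and 8.46, at a distance of 0.35, and *Rprd1b*, whose product binds the tail of RNA polymerase II, had 11.9 and 9.36, at 0.42. Of the 4 genes listed for the chemerin system, the ligand *Rarres2* and the receptors *Cmklr1* and *Ccrl2* lay outside the stretches, and so did *Dbf4*, the gene that gave the zinc finger its name.

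**Figure D2:**
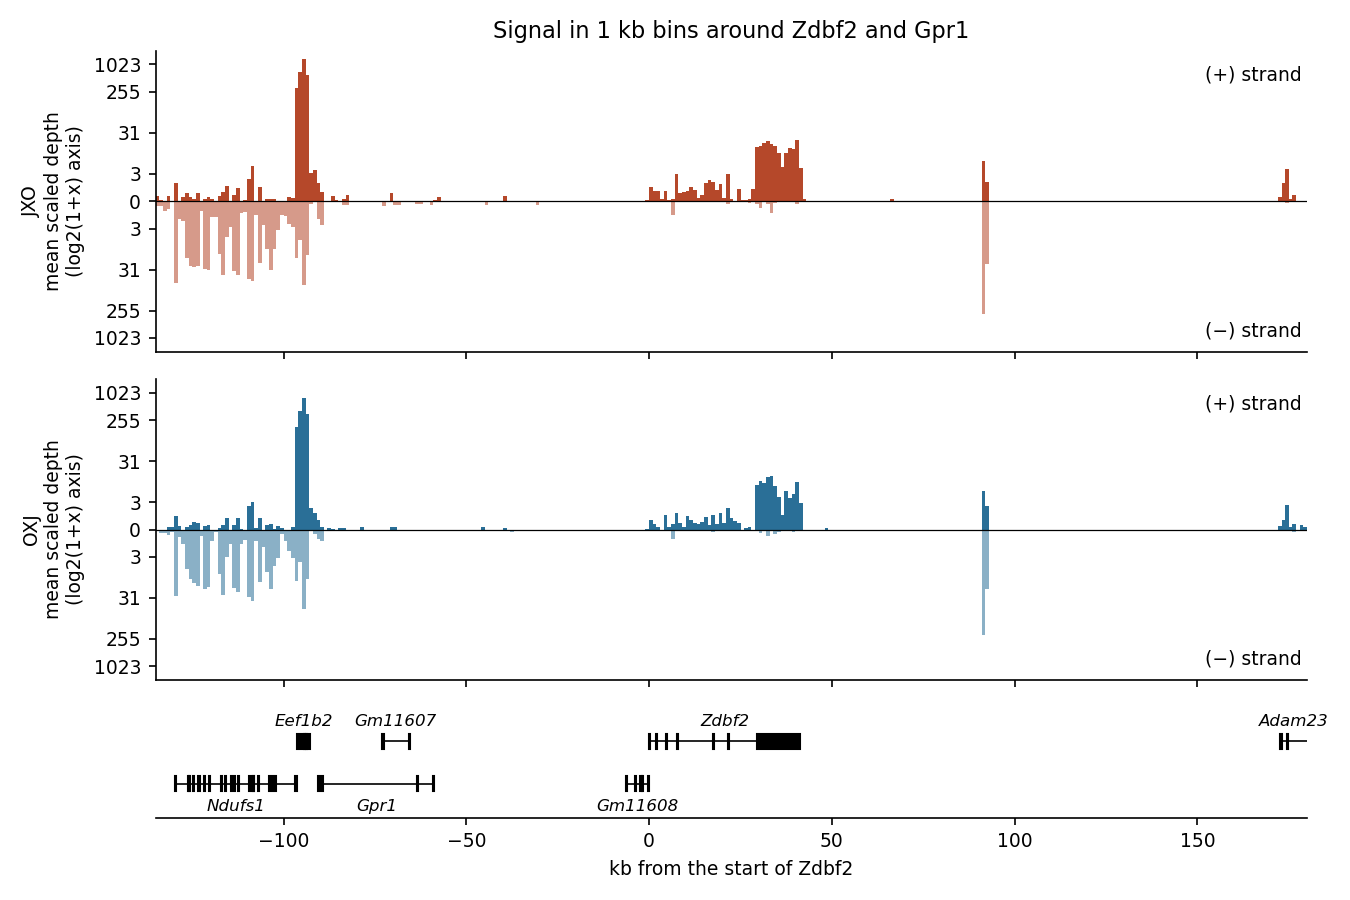
Mean scaled depth in 1 kb bins from beyond the end of *Ndufs1* into *Adam23*, against the distance from the start of *Zdbf2* in kb, on a log2(1 + x) axis, with the JXO panel over the OXJ panel, (+) strand signal upward and (−) strand signal downward, and gene models at the bottom. The (+) signal of *Zdbf2* stands between flanks that are nearly empty in both libraries. The sharp (−) signal at about 91 kb lies at the pseudogene *Gm11605*. Reads that align to several loci were kept, and whether these reads come from the pseudogene or from another copy of its sequence was not tested.

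Between the start of *Gpr1* and the start of *Zdbf2* (chr1:63261118-63319838) there was almost no RNA on either strand. On the (+) strand JXO had 9.68 reads, over 0.586% of the bases, and OXJ 3.57 reads, over 0.499%. On the (−) strand JXO had 6 reads and OXJ 4 reads. Of 58 whole 1 kb bins, 2 held (+) signal in JXO (3.45%, Clopper-Pearson interval 0.420 to 11.9%) and 2 in OXJ, and 3 held (−) signal in JXO (5.17%, 1.08 to 14.4%) and 3 in OXJ. With a depth of at least 2 reads asked of a bin, the (+) share was 3.45% in JXO and 1.72% in OXJ and the (−) share 3.45% and 1.72%. Inside *Zdbf2*, in contrast, (+) signal was in 40 of 41 such bins in JXO and 38 of 41 in OXJ. The libraries shared 1 small spot of (+) signal in this interval, with 5 reads at chr1:63280665-63280774 in JXO and 1 read at chr1:63280672-63280771 in OXJ, where 1 (−) read lay at the same spot.

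The start inside *Gpr1* from which the longer embryonic form is known to run showed no (+) read in either library within its 300-base RefSeq window. The like window at the somatic start held only 1.96 (+) reads in JXO and 1.62 in OXJ. At this depth the count of 0 inside *Gpr1* alone therefore cannot tell an unused start from one used as much as the somatic start. The window inside *Gpr1*, chr1:63246682-63246981, ends soon after its RefSeq start at chr1:63246932. *Gm11607*, an annotated (+) strand transcript (chr1:63246887-63254188), begins inside this window in *Gpr1*. It had no read on its exons, and its intron held 8 (+) reads in JXO and 4 in OXJ. Of the 8 in JXO, 2 lay exactly over chr1:63249284-63249383 and 2 exactly over chr1:63249408-63249507. Each of these runs was as long as 1 read, so its reads cannot be told apart from PCR copies. Over the 73.0 kb from the start of *Gm11607* to the start of *Zdbf2*, 4 of 72 whole 1 kb bins held (+) signal in JXO and 4 of 72 in OXJ. *Gm11608*, annotated on the (−) strand just upstream of the somatic start (chr1:63313422-63319694), had no read on either strand in either library, which allows a (−) level of up to 0.0767 in JXO and 0.0681 in OXJ (upper limit of the exact Poisson interval). The small RNA annotations *AL645950.1* in *Gpr1* and U6 in intron 6 of *Zdbf2* had no read on their own strand, nor did *AL669947.1*, which lies across the *Zdbf2* start on (−).

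At the somatic start the (+) signal set in within 50 bases of the annotation. The first covered base lay 34 bases before the annotated start in JXO and 49 bases before it in OXJ. The 300-base RefSeq window around this start held 1.96 (+) reads in JXO and 1.62 in OXJ and no (−) read. At the other end the last covered base lay 7 bases before the annotated end in JXO and 11 bases before it in OXJ. The last 50 bases of the gene held AATAAA, the polyadenylation signal, 1 time, 15 bases before the annotated end. The reads ended 8 bases past this signal in JXO and 4 bases past it in OXJ. In the 42.9 kb from there to the next annotated gene, the pseudogene *Gm11606*, JXO had 4 (+) reads and no (−) read, and OXJ had 1 read on each strand.

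Depth changed in steps at most of the annotated exon edges, with exceptions at exons 1 and 2 and weak steps at exon 5. At the start of exon 1 it was 2 reads in JXO and 2 in OXJ over the first 10 bases, against 2 and 1.8 just before, and at exon 2 it did not pass 1.8 reads in JXO or 1 in OXJ on either side of an edge. Exon 1 averaged 10.6 reads over its last 10 bases in JXO and 10.0 in OXJ, and no read in either library lay on the first 10 bases of intron 1. Exon 4 averaged 52.7 reads over its last 10 bases in JXO and 18.2 in OXJ, against 1.8 and 0.8 just after it. The last exon averaged 25.3 reads over its first 10 bases in JXO and 12.3 in OXJ, against 0.3 and 0.2 just before it. Exons 3, 4 and 6, the end of exon 1 and the start of exon 7 thus stood out from the introns beside them. The steps at exon 5 were smaller. At its start there were 6 reads in JXO and 1.5 in OXJ before the edge and 9.4 and 2 after it. At its end there were 8 reads in JXO and 9 in OXJ before the edge and 4.8 and 5 after it. The splice sites around intron 6, between the small exons and the last one, and the coding start in exon 5 are shown. They are given because the coding sequence begins in exon 5 and continues across intron 6 into the last exon. Capitals mark the first and last 2 bases of the intron and the start codon.
Intron 6 donor, chr1:63341606-63341635, (+) strand: ttaccaagacaacagGTaagatagttcagt
Intron 6 acceptor, chr1:63349199-63349228, (+) strand: ccccttcttctttAGatctgcaccaaatga
Coding start, chr1:63337312-63337356, (+) strand: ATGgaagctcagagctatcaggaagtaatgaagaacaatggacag
Intron 6 begins with GT and ends with AG, the usual splice site bases.

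The first 6 exons were unequal in depth. Exon 1 had a level of 3.33 in JXO (1.02 to 7.31) and 1.42 in OXJ (0.344 to 4.88). Exon 2, which 1 of the annotated transcripts leaves out, was nearly empty, at 0.55 in JXO (0 to 5.79) and 0.328 in OXJ (0 to 5.15). Exon 3 had 8.87 (2.68 to 25.2) and 10.7 (3.55 to 25.5). In reads per base, exon 2 had 0.843 in JXO and 0.566 in OXJ, against 13.6 and 18.5 in exon 3. Exon 4 stood at 24.9 in JXO (15.3 to 37.7) and 10.3 in OXJ (5.002 to 19.2), exon 5 at 5.84 (2.11 to 12.5) and 2.73 (0.527 to 7.46), and exon 6 at 22.9 (14.5 to 34.3) and 11.1 (6.12 to 19.6). These exons are short, between 53 and 208 bases, and their intervals are wide. Exons 4 and 6 lay above exon 5 in both libraries, with intervals that do not overlap for JXO.

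**Figure D3:**
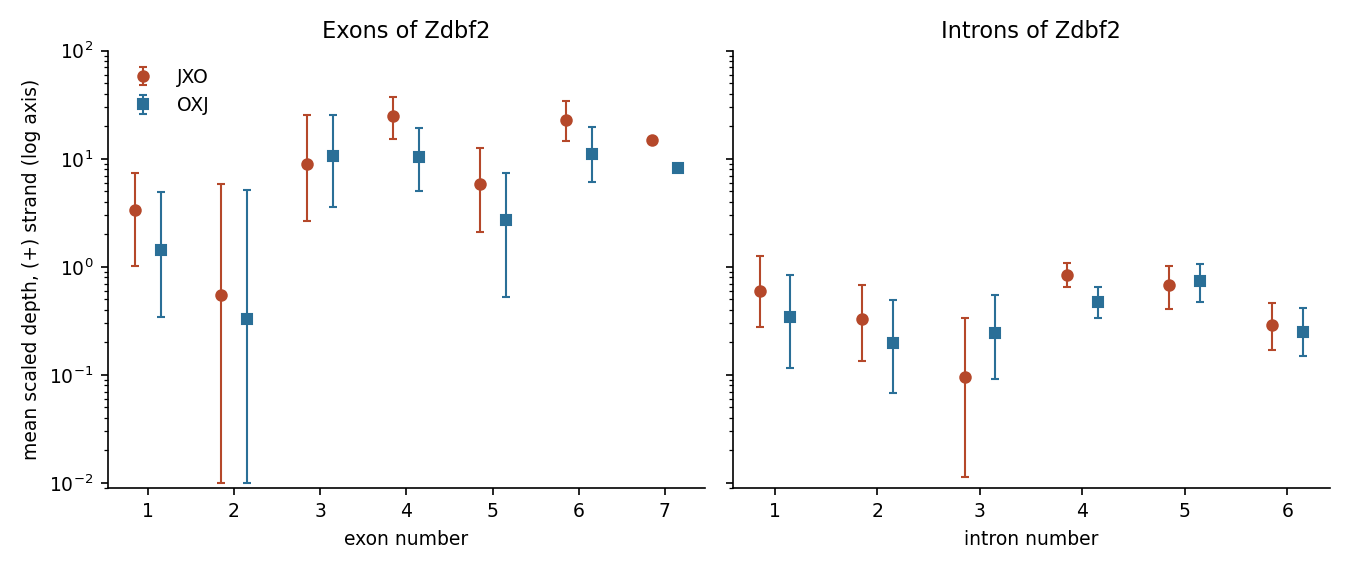
Mean scaled depth on the (+) strand (log axis) of the 7 exons (left) and 6 introns (right) of *Zdbf2* drawn as circles for JXO and squares for OXJ, each with its 95% counting interval; intervals of exon 2 that reach 0 are drawn down to 0.01. Exon 2, at 0.55 in JXO and 0.328 in OXJ, lies with the introns, while exons 3 to 7 lie between 2.73 and 24.9.

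Intron signal was present but low. The mean intron level was 0.535 in JXO and 0.397 in OXJ, so that exons were 27.6 times and 20.4 times as deep as introns. The ratio of intron over exon level was 0.0362 in JXO and 0.0491 in OXJ, beside medians of 0.0282 over 560 coding genes in JXO and 0.0297 over 562 in OXJ. *Zdbf2* was at the 57.0 percentile of these genes in JXO and at the 65.3 percentile in OXJ. Intron 4, the longest with 9769 bases, had 0.835 in JXO (0.646 to 1.08) and 0.474 in OXJ (0.339 to 0.646), and intron 5 had 0.676 (0.410 to 1.01) and 0.739 (0.476 to 1.07). Intron 3 had the lowest level in JXO, at 0.0946 (0.0113 to 0.338), and 0.244 in OXJ (0.0916 to 0.543), where intron 2 was lowest at 0.198.

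Most of the *Zdbf2* signal came from its last exon, 11.9 kb long (chr1:63349214-63361150), which holds 97.6% of the coding bases and the whole 4.63 kb 3′ UTR. It held 95.9% of the exon reads in JXO and 96.2% in OXJ, beside 94.3% of the exon bases. Over its coding part JXO stood at 15.5 (14.5 to 16.6) and OXJ at 9.53 (8.78 to 10.3). Over the 3′ UTR JXO stood at 14.3 (13.05 to 15.6) and OXJ at 6.24 (5.50 to 7.07). In JXO the intervals of both parts overlap, while in OXJ the 3′ UTR lay below the coding part beyond the counting error.

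The ratio between the libraries therefore changed along the exon. It was 0.70 (0.55 to 0.86) on the log2 scale over the coding part and 1.19 (0.97 to 1.42) over the 3′ UTR. In bins of 500 bases, the 13 coding bins with at least 1 read pair in each library had log2 ratios from -0.02 to 1.61 with a median of 0.77, and 12 of 13 were higher in JXO. All 8 whole bins in the 3′ UTR were higher in JXO, with ratios from 0.83 to 2.19 and a median of 1.22. Most measured genes were higher in JXO too, with a median log2 ratio of 0.48 and a 25 percentile of 0.17. The coding bins that begin at 1.0, 3.0, 3.5 and 4.0 kb lay below this median gene, and the whole 3′ UTR bins lay above it. The lowest bins, 3.5 and 4.0 kb into the exon, had levels of 15.02 and 16.9 in JXO and 15.4 and 15.9 in OXJ. The bin that holds the stop codon had 28 read pairs in JXO and 6 in OXJ, a ratio of 2.39 (1.09 to 3.96). Set against the whole coding sequence, the 3′ UTR ratio was higher by 0.48 (0.22 to 0.75). Over 331 coding genes with at least 30 read pairs in each part and library and a 3′ UTR of at least 300 bases, this difference had a median of 0.16 and a 95% range of -0.48 to 0.75, and 13.3% of the genes exceeded *Zdbf2*. Within 500 bases of a representative SNP of *Zdbf2* in the 3′ UTR, JXO reached 22.1 (18.9 to 25.7) and OXJ 10.3 (8.27 to 12.7), a log2 ratio of 1.105 (0.73 to 1.49).

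**Figure D4:**
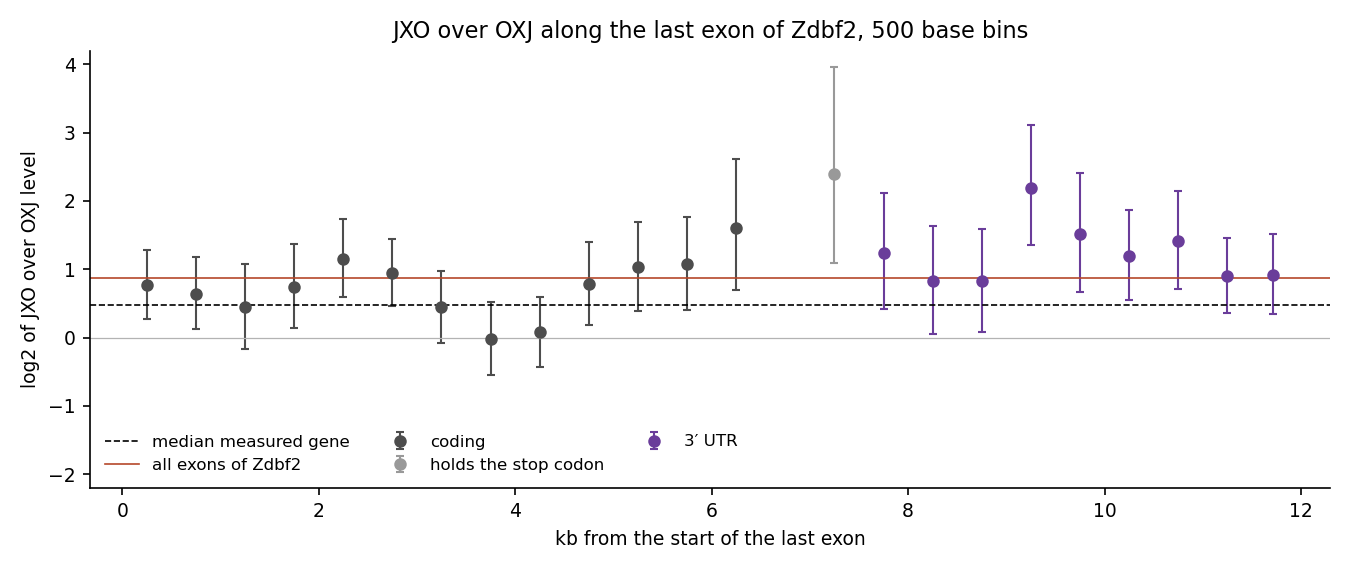
log2 of the JXO over the OXJ level in 500-base bins along the last exon of *Zdbf2*, against kb from the start of the exon, with 95% counting intervals as bars, for bins in the coding part, at the stop codon and in the 3′ UTR; the dashed line is the median measured gene at 0.48 and the red line all exons of *Zdbf2* at 0.87. All bins of the 3′ UTR lie above the dashed line, and 4 coding bins, those that begin at 1.0, 3.0, 3.5 and 4.0 kb, lie below it; the bin at 6.5 kb, with no whole read pair in OXJ, is left out.

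A gap without any read cut through the coding part in both libraries. It ran from chr1:63355813 to chr1:63356280 in JXO, 468 bases, and from chr1:63355755 to chr1:63356255 in OXJ. The 443 bases at 0 in both libraries begin 6599 bases into the exon and end 261 bases before the stop codon. Apart from this gap JXO had 1 uncovered stretch inside the exon, of 1 base, and OXJ had 4, the longest of 75 bases. The gap is 86.5% GC, against 39.8% in the rest of the exon, and is repetitive with a best period of 36 bases. When shifted by 36 bases, 83.5% of its bases matched, against a mean of 43.1% over shifts of 10 to 99 bases. Its first 300 bases are shown because no read reached them, with CGTGCC, a word that recurs through the repeat, in capitals.
First part of the gap, chr1:63355813-63356112, (+) strand: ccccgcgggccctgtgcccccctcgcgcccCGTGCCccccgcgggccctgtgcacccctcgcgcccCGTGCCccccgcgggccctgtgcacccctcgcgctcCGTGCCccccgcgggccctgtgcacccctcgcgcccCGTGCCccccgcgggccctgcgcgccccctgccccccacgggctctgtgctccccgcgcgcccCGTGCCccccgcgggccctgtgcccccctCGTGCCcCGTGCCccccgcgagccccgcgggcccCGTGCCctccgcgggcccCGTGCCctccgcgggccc
Of 419 words of 25 bases in the gap, 150 (35.8%) occurred more than once in the coding part of the exon, against 22 of 6812 words in the rest of it. BLAST found no match of the gap elsewhere in mm9 at 90% identity or more. It did not return the repeats inside the gap either, so the search can miss copies. The 549 matches of the rest of the exon to other places were at most 54 bases long, shorter than a read of 100 bases. In 475 coding genes with at least 5 reads per exon base in each library, 100-base windows of 80% GC or more had no read in both libraries in 9.16% of 131 windows, those of *Zdbf2* included. Windows of 40 to 50% GC had none in 3.18% of 4975, and those of 70 to 80% GC in 2.88% of 555. As windows of the gap count in the class of 80% GC or more, its share is not an independent background for the gap. Whether base composition, the repeat or the alignment left the gap was not tested.

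**Figure D5:**
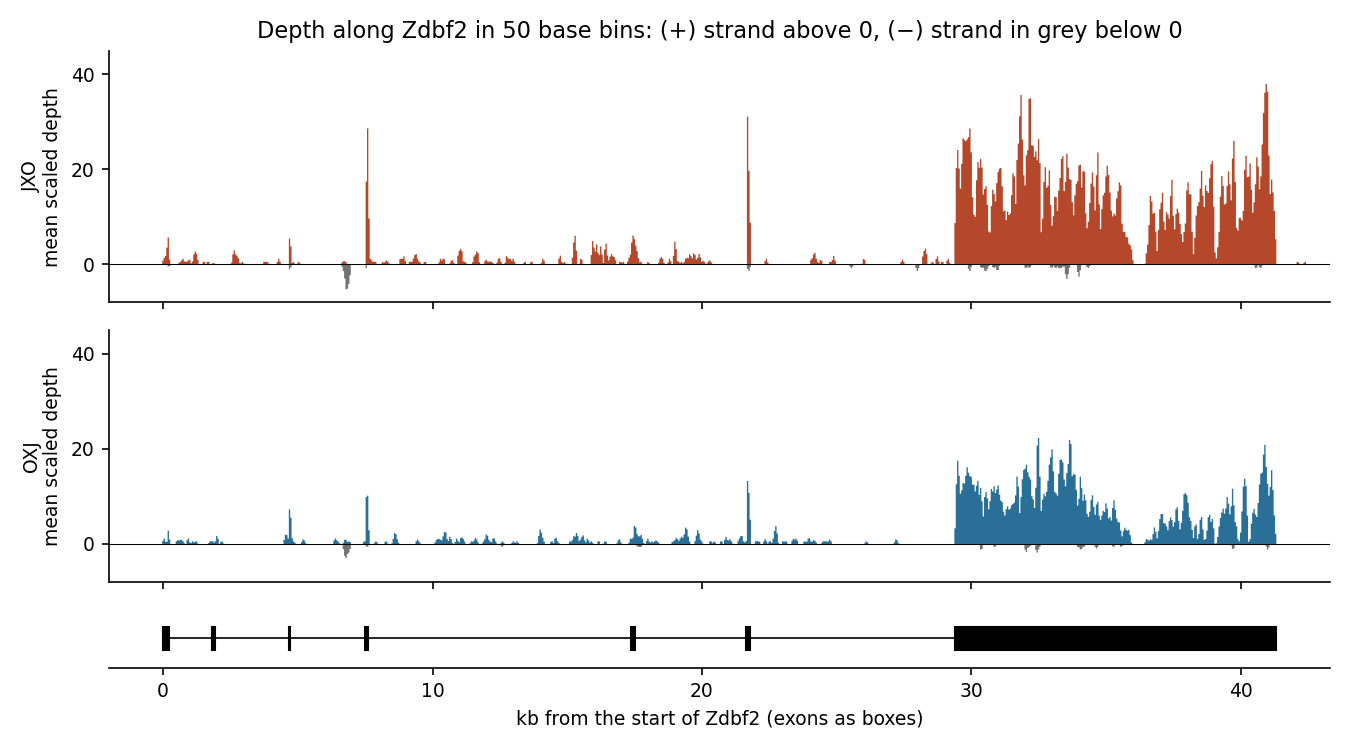
Mean scaled depth along *Zdbf2* in 50-base bins, against kb from its start, in JXO (top) and OXJ (bottom), with the (+) strand above 0, the (−) strand in grey below 0 and the exons as boxes. Depth is concentrated in the last exon with thin peaks at exons 3, 4 and 6, and the gap, 468 bases long in JXO, cuts the last exon before the 3′ UTR.

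Over its exons *Zdbf2* was read almost wholly in the sense orientation, 98.9% in JXO (98.2 to 99.4%) and 98.7% in OXJ (97.7 to 99.3%). The medians over measured coding genes were 97.1% and 96.2%. Over the whole gene there were 51 (−) reads in JXO and 37 in OXJ. Of these, 28 reads in JXO and 23 in OXJ fell on the last exon, scattered in 15 and 10 separate runs. In JXO 3 of 22 runs shared an edge with an exon of *Zdbf2*. Of these 1 ended where exon 1 ends, 1 filled exon 3 exactly, and 1 began where exon 4 begins. In OXJ 0 of 14 runs did.

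The most compact (−) signal lay in intron 3, 551 bases before exon 4, at the same place in both libraries (chr1:63326474-63326789, 316 bases). It held 16 reads in JXO and 10 in OXJ, 31.4% and 27.0% of all (−) reads of the gene. When this stretch was searched with 1000 bases on either side, the segment chr1:63326344-63326811 had a second copy with 98.7% identity at chr1:59907677-59908147, in reverse orientation. That copy lies in *Bmpr2*, a (+) strand gene of a BMP receptor, and includes 126 bases of 1 of its exons. RNA of *Bmpr2* has therefore the same orientation as these (−) reads. *Bmpr2* lies outside the stretches, so its level is not measured, and as reads were kept at up to 10 loci, reads of the 2 copies cannot be told apart.

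*Gpr1* showed its own exon structure in JXO in spite of few reads. The covered run over its last exon ended exactly at the exon edge, at chr1:63230678, the run in exon 2 stopped at its edge, chr1:63256328, and the run in exon 1 at chr1:63260738. The last exon, which holds the 1059 coding bases, had a level of 2.71 in JXO (1.79 to 3.84, 58.7 reads) and 0.983 in OXJ (0.508 to 1.72, 24 reads). Exon 1 had 3 reads and exon 2 had 2.27 reads in JXO, and in OXJ neither had any. A count of 0 allows levels of up to 1.12 for exon 1 and 2.93 for exon 2 in OXJ, both above the JXO levels of 0.515 and 1.01, so a difference was not detectable there at this depth. Intron 1 held 2 reads in JXO and none in OXJ, and intron 2, of 25649 bases, held 17 reads in JXO and 4 in OXJ. The RefSeq windows around the 2 starts of *Gpr1* held 0.96 and 2 (−) reads in JXO and none in OXJ.

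*Gpr1* had a lower share of sense reads than *Zdbf2*, 84.0% in JXO (68.7 to 94.0%) and 75% in OXJ (47.6 to 92.7%). The (+) strand gene *Eef1b2* ends 2204 bases from the end of *Gpr1*, and (+) signal filled much of the sequence between them. Between these ends JXO had a (+) level of 3.17 (2.40 to 4.17), with 95.0% of the bases covered, and OXJ one of 1.31 (0.850 to 1.94), with 73.5% covered. In JXO 1 covered run of 968 bases reached from this interval across the end of *Gpr1* to chr1:63229413. Over the coding sequence of *Gpr1* alone 85.0% of the reads were sense in JXO and 84% in OXJ. Intron 2 of *Gpr1* held 23.7 (+) reads in JXO and 10 in OXJ, more than the 17 and 4 reads on its own strand.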

How the data were processed

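Total RNA depleted of ribosomal RNA was sequenced strand-specifically (dUTP method, paired ends) from 1 JXO and 1 OXJ MEF library. The authors aligned reads to mm9 with TopHat 1.2.0, kept reads with up to 10 loci (base calls by CASAVA 1.9), took the depth at each base per 50000000 aligned reads, and deposited its log2(1 + depth) for either strand in 4 tracks. Depth was recovered as the power of 2 minus 1, and whole reads by dividing by the smallest depth above 0 of each library. Tracks named forward hold (−) strand RNA. The tracks hold only part of each library.

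Levels are means over merged annotated exons. A gene was measured where its exons lay inside the covered stretches (gaps up to 50 kb joined) with at least 10 read pairs (200 read bases each) in at least 1 library. Intervals are exact Poisson for levels, conditional exact binomial for ratios and Clopper-Pearson for shares, and cover counting error only. As reads carry no molecular identifiers, PCR copies count as separate molecules, and the intervals can be too narrow. With 1 library per cross no test was made between crosses. Called means at least 2-fold from the median measured gene.

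The genes, lists and tests were chosen with earlier results of these data known. Genes named are *Zdbf2*, *Gpr1*, annotations that overlap or lie between them, the neighbours and examples from the measured members of the lists, and the 3 coding genes most like *Zdbf2*. The interval of the difference between 3′ UTR and coding ratios is a normal approximation. Python 3.11.15, numpy 2.4.6, scipy 1.17.1, pandas 2.3.3 and BLAST 2.17.0 were used, and the scripts were tested on simulated data. Promoter windows come from RefSeq. Alternatives covered the scale, the exon model, low-depth bases and bin size.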

Additional observations from a re-analysis of the deposited data

How the results depend on the processing

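No paired analysis was possible because there was 1 library per cross, and for the same reason no replicate could be left out. Of 38 alternatives, 30 stayed within the counting interval of the value given in the text and 8 moved outside it. *Gpr1* has 1 annotated transcript, so taking the exons of its longest coding transcript could not change its values, and these alternatives count among the 30. Levels and shares cannot be negative, so only the log2 ratios of JXO over OXJ could change direction, and none of them did. Taking the depth behind the mean of the log2 values gave *Zdbf2* levels of 11.9 in JXO and 6.15 in OXJ. The log2 ratio of *Zdbf2*, 0.87 on the deposited scale, was 0.69 with equal totals of the tracks, 0.39 with the median gene set equal and 1.105 within 500 bases of the representative SNP. In alternatives chosen after seeing the data it was 0.70 over the coding part of the last exon and 1.19 over the 3′ UTR. The ratio of *Gpr1* was 1.40 with equal totals and 1.11 with the median gene set equal. The sense share of *Zdbf2* in JXO was 99.4% over bases with at least 2 reads. Between the genes, bins of 500 bases gave a (+) share of 1.71% in JXO and 1.71% in OXJ and a (−) share of 3.42% in JXO and 2.56% in OXJ. Depth limits *Gpr1* most, with 32 read pairs in JXO and 12 in OXJ.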
